A study of Mus musculus with 18 samples.

Results

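The comparison described here follows wild type mouse embryos from E3.75 to E4.5, the last step of blastocyst development before implantation. It rests on 6 of the 18 libraries of the series, 3 at each of the 2 stages, chosen by their column headers. All came from embryos of the CD1 strain with the genotype Oct4 +/+, flushed from oviducts or uteri and given no treatment. Oct4 null embryos (Oct4 -/-, also CD1) of E3.75 and E4.5, with 3 libraries each, were used where the wild type change was set beside theirs, and the libraries of E2.5 were not analysed here. RNA was primed with oligo(dT) and amplified, so that reads lie mostly near the 3′ ends of polyadenylated transcripts. The series title gives the wider question as which genes depend on Oct4, a transcription factor of pluripotent cells encoded by Pou5f1. The wild type libraries alone bear on which genes differ between the 2 stages.

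As background, the mammalian blastocyst holds an outer epithelium, the trophectoderm, which pumps fluid into the cavity, contacts the uterus and forms the placenta. The inner cell mass divides into the epiblast, which forms the body of the embryo, and the primitive endoderm, which lays down basement membrane and forms yolk sac. Nanog and Gata6 mark the inner cells that become epiblast and primitive endoderm respectively, and FGF4 from epiblast cells acts on FGF receptors of their neighbours. The late blastocyst takes up more glucose than the cleaving embryo and prepares enzymes, adhesion molecules and secreted proteins for implantation.

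Levels are in CPM, reads scaled to a library total of 1000000, rescaled to the 5882 genes present in the tables of both stages. The tables held 6648 genes at E3.75 and 6545 at E4.5, and genes in 1 table only were left out of every test. Reads over the shared genes ranged from 525295 to 1163641 in the 3 E3.75 libraries and from 510307 to 1077415 in the 3 E4.5 libraries, so 1 read was worth 0.859 to 1.96 CPM. The E4.5 wild type columns carry 1 and the same header, so their libraries are lettered A, B and C from left to right. Each stage has a table of its own, so stage and table cannot be told apart, and large changes carry more weight below. Library 3 of E3.75 and library C of E4.5 were nearly what a blend of the 2 other libraries of their stage would give. Their variance around the best blend was 1.15 and 1.06 times that of read sampling at equal depth. The same ratio was 1.30 to 1.67 for the other 4 wild type libraries. In null embryos it was 1.16 for library 3 of E3.75 and 0.998 for library 3 of E4.5. The other null libraries gave 1.11 (E4.5 library 2) to 2.38 (E4.5 library 1, which held only 360405 reads over the shared genes). The series text states 3 embryos per genotype and stage and no more about the libraries, so p-values reflect only the spread among these libraries, which may be technical in part. Counts are therefore repeated with libraries 1 and 2 of E3.75 and A and B of E4.5, called the first 2 libraries below.

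Means are given ± SD with n = 3. Fold changes are differences of log2(CPM + 1), E4.5 minus E3.75, with an SE (standard error) and an adjusted p from limma, a linear model fitted to all shared genes with Benjamini-Hochberg adjustment over them. This scale understates changes of genes with low levels. A gene is said to have risen or fallen where its adjusted p was under 0.05.

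Of the 5882 genes, 2019 (34.3%) passed the test, 776 of them higher at E4.5 (13.2%) and 1243 lower (21.1%). At least 2-fold changes on this scale were 311 rises (5.29%) and 480 falls (8.16%). The 2 groups did not overlap in 2723 genes (46.3%), and they did not overlap in 774 of the 791 genes with 2-fold changes. With the first 2 libraries of each group 428 genes were higher (7.28%) and 689 lower (11.7%), and 618 of the 791 genes with 2-fold changes still passed. The median of all genes was -0.12, and with TMM factors, which scale libraries to a common bulk of genes, it was -0.01. With these factors 987 genes were higher (16.8%) and 955 lower (16.2%), so 50.8% of calls were rises against 38.4% on the main scale. A small shift of many genes therefore depended on the scale, and the 2-fold changes depended on it less, since 765 of the 791 passed with TMM factors too. Across genes, Pearson correlations between libraries were 0.942 to 0.968 within a stage (6 pairs) and 0.88 to 0.906 between stages (9 pairs).

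**Figure D1:**
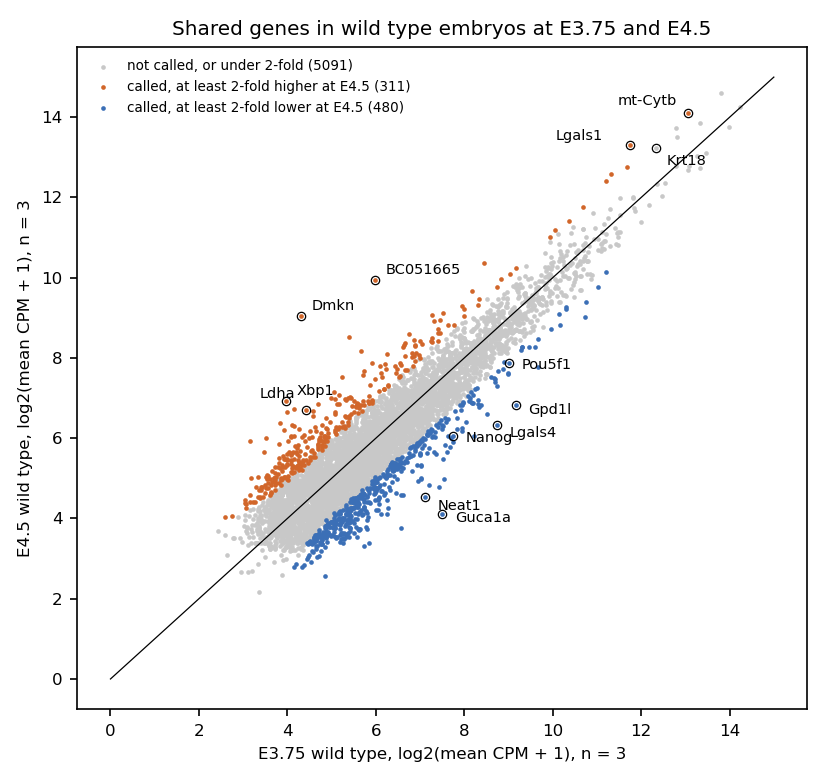
Mean level of each shared gene in wild type embryos, with log2(mean CPM + 1) at E3.75 on the horizontal axis and at E4.5 on the vertical axis (n = 3 each). Orange points are the 311 genes that rose at least 2-fold, blue points the 480 that fell at least 2-fold, and Dmkn, BC051665 and Guca1a lie farthest from the line of equal levels.

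Pou5f1 (ENSMUSG00000024406), the gene of the Oct4 protein, stood at 607, 385 and 554 CPM in the 3 E3.75 libraries and at 277, 237 and 185 CPM in the E4.5 libraries A, B and C. All E4.5 libraries lay below all E3.75 libraries. The mean fell from 515 ± 116 to 233 ± 46.3 CPM, a log2 fold change of -1.14 (SE 0.16, adjusted p = 1.75e-05). Oct4 null embryos held 261 ± 33.6 CPM at E3.75 and 113 ± 27.3 CPM at E4.5 on the same scale. Since the deleted stretch of the gene is not stated, these 3′ reads do not check the genotype.

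Pou5f1 was 1 of 12 genes of the epiblast and pluripotency list that fell, against 3 that rose, of 27 measured members (42 listed). Over all genes 21.1% fell and 13.2% rose. The list median was -0.44, and with the first 2 libraries 7 fell and 2 rose. Nanog, a transcription factor that keeps epiblast cells pluripotent, held 177, 243 and 223 CPM at E3.75 and 65.1, 68.6 and 62.2 CPM at E4.5. The groups stood well apart, and the log2 fold change of -1.69 (SE 0.17, adjusted p = 1.96e-07) was the greatest fall in the list. Dppa3, also called Stella, a maternal and germline factor that guards DNA methylation, went from 1139 ± 128 to 454 ± 60.9 CPM (log2 fold change -1.33). Tbx3, a transcription factor of naive pluripotency, held 83.8, 60.2 and 52.7 CPM at E3.75 and 26.0, 11.8 and 26.0 CPM at E4.5, also without overlap (adjusted p = 0.000334). The fall was therefore shared by the core factor, its partner Nanog and 2 further regulators, but not by each member of the list.

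Spp1, which encodes the secreted integrin ligand osteopontin, held 168, 73.0 and 112 CPM at E3.75 and 355, 299.8 and 297 CPM at E4.5 and was the only list member with a rise of 2-fold or more (adjusted p = 1.16e-05). Dppa5a, a pluripotency gene for an RNA-binding protein, rose from 723 ± 83.7 to 1024 ± 57.1 CPM. Fgf4, the FGF ligand of the epiblast, held 51.4, 51.6 and 51.0 CPM and then 48.3, 39.2 and 43.6 CPM, a difference of -0.23 that did not pass (adjusted p = 0.445). Esrrb, an orphan nuclear receptor of naive pluripotent cells, spread from 27.4 to 68.7 CPM among the E4.5 libraries, overlapping those of E3.75 (adjusted p = 0.0608), and passed as lower with the first 2 libraries (0.0159). In bulk RNA fewer cells of a type and less RNA per cell cannot be told apart, and this holds for every lineage list here.

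The DNA methyltransferase Dnmt3b, which rises as the epiblast leaves the naive state, held 13.3, 22.3 and 17.6 CPM at E3.75 and 52.1, 45.1 and 47.3 CPM at E4.5. All E4.5 libraries were above all E3.75 libraries, with a log2 fold change of 1.42 (SE 0.29, adjusted p = 0.000739). Its cofactor Dnmt3l held 134 ± 11.1 and 149 ± 5.64 CPM (adjusted p = 0.458), with overlapping libraries. Of the signals that act on these cells, Bmp4, a growth factor, fell from 41.6 ± 5.60 to 15.9 ± 6.67 CPM, and did not pass with the first 2 libraries (adjusted p = 0.0516). Id3, a transcriptional target of BMP signalling, held 118, 125 and 141 CPM at E3.75 and only 24.2, 31.4 and 36.2 CPM at E4.5 (log2 fold change -2.05, adjusted p = 3.43e-07). Pcsk6, a protease that activates Nodal precursors, went the other way, from 154 ± 12.1 to 336 ± 108 CPM (adjusted p = 0.000105). These were the 3 called genes among 8 measured members of the Nodal, BMP and Wnt list (27 listed), whose median of -0.16 lay near that of all genes. The list's 1 rise and 2 falls lie near the shares of all genes, 13.2% and 21.1%.

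**Figure D2:**
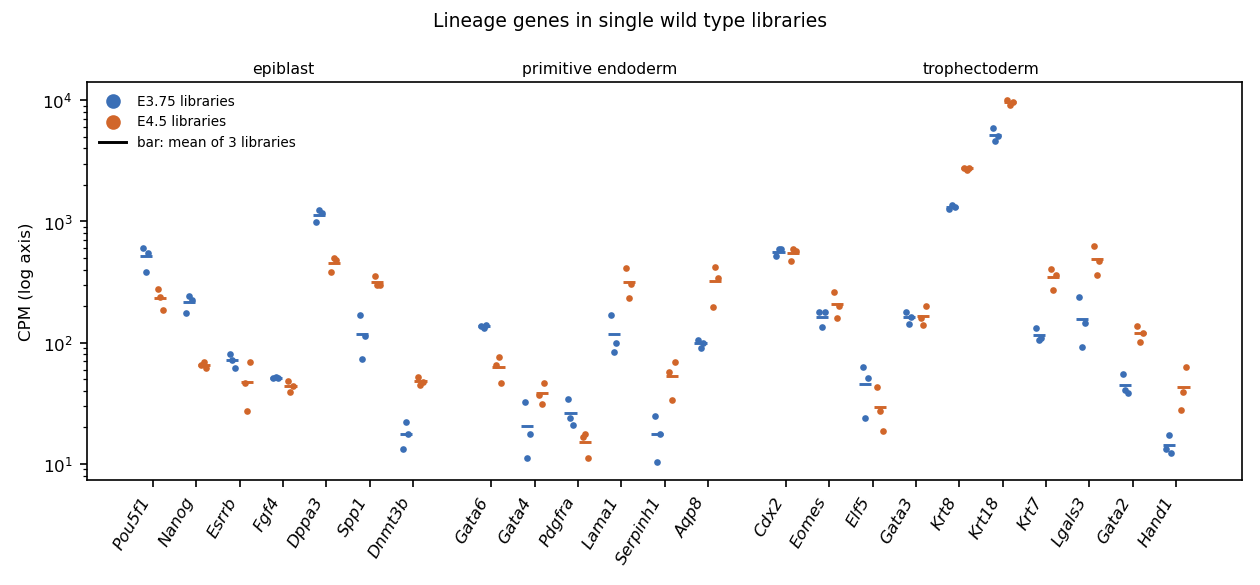
Levels of lineage genes in the 6 wild type libraries, in CPM on a log axis, with E3.75 libraries in blue, E4.5 libraries in orange and a bar at the mean of 3. Pou5f1, Nanog, Dppa3 and Gata6 are lower at E4.5 in every library, Krt8, Krt18, Krt7 and Gata2 higher in every library, and Cdx2 and Gata3 overlap.

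Genes of the primitive endoderm moved in both directions. Of 21 measured members (42 listed) 9 rose and 2 fell, with a median of 0.64, and with the first 2 libraries 8 rose and 2 fell. Over all genes 13.2% rose and 21.1% fell. A further 2 listed genes had values at E3.75 only and 2 at E4.5 only, and were not tested. Sox17, a transcription factor of this lineage, had values at E3.75 only. Gata6, the early transcription factor of this lineage, held 137, 131 and 141 CPM at E3.75 and 65.1, 76.4 and 46.4 CPM at E4.5. The groups did not overlap, and the fall was -1.14 on the log2 scale (SE 0.19, adjusted p = 0.000131). Gata4, which acts after Gata6, held 32.4, 11.2 and 17.6 CPM and then 37.2, 31.4 and 46.4 CPM, and its libraries overlapped. Its rise passed with all libraries (adjusted p = 0.032) but not with the first 2 (0.215), without E3.75 library 2 or 3 (0.168 and 0.0734) or without library C (0.143). Pdgfra, a receptor of primitive endoderm, held 26.5 ± 6.91 and 15.2 ± 3.52 CPM and did not pass (adjusted p = 0.0982).

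The rises in this list lay mostly in matrix proteins, in enzymes and chaperones of collagen assembly and in proteins of the cell surface. Lama1, a laminin chain of the embryonic basement membrane, held 169, 84.2 and 98.4 CPM at E3.75 and 411, 235 and 304 CPM at E4.5 (log2 fold change 1.45, adjusted p = 2.87e-05). Serpinh1, the collagen chaperone HSP47, rose from 17.5 ± 7.22 to 53.5 ± 18.5 CPM, and P4ha2, a collagen prolyl hydroxylase, from 50.1 ± 15.5 to 95.3 ± 10.5 CPM. Sparc, a matrix glycoprotein, rose from 125 ± 19.1 to 251 ± 65.0 CPM. In each of these genes the lowest E4.5 library lay above the highest E3.75 library. Col4a1, a chain of basement membrane collagen, rose less, from 136 ± 3.73 to 213 ± 34.2 CPM (adjusted p = 0.00256). Among all genes 13.2% rose and 21.1% fell. The matrix list as a whole had 5 rises and 1 fall among 14 measured genes (26 listed), 5 and 0 with the first 2 libraries, and shares its risen members with the primitive endoderm list. The fall was that of Fn1 (fibronectin), from 38.2 ± 8.88 to 19.7 ± 8.72 CPM, and it did not pass with TMM factors (adjusted p = 0.0529) or with the first 2 libraries (0.205). It was also lost without E3.75 library 1 or 3 (0.108 and 0.0891) and without library B or C (0.0798 and 0.0977).

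Aqp8, a water channel, held 105, 91.1 and 100.2 CPM at E3.75 and 197, 423 and 342 CPM at E4.5, the greatest rise of the primitive endoderm list (1.62, SE 0.20, adjusted p = 3.07e-06). Library A was the lowest of the E4.5 libraries for Aqp8 and the highest for Lama1 and Sparc. Fgfr2, the FGF receptor of primitive endoderm and trophectoderm, held 76.1, 92.8 and 89.6 CPM and then 221, 167 and 200.5 CPM (adjusted p = 1.58e-05). Fgfr1, the other FGF receptor measured, went from 115 ± 15.6 to 162 ± 11.5 CPM, a difference lost with the first 2 libraries (adjusted p = 0.133), without E3.75 library 1 (0.0664) and without library C (0.0995). These receptors were the 2 rises among 4 measured members of the FGF list (20 listed), in which none fell and the ligand Fgf4 did not pass. Among all genes 13.2% rose and 21.1% fell. A further 4 listed genes had values at E3.75 only and 1 at E4.5 only, so their changes could not be tested. Apoe, a lipid carrier, rose from 100.6 ± 34.7 to 209 ± 38.4 CPM.

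In the trophectoderm list 15 of 28 measured members (42 listed) rose and 1 fell, against 13.2% and 21.1% of all genes. The list median was 0.40, and 12 rose and none fell with the first 2 libraries. The 4 transcription factors that specify the lineage or keep its stem cells did not pass the test. Cdx2 held 514, 593 and 587 CPM at E3.75 and 474, 594 and 575 CPM at E4.5, a log2 difference of -0.05 with a 95% interval from -0.28 to 0.19. Gata3 differed by 0.03 (-0.30 to 0.37), Eomes by 0.31 (-0.05 to 0.67) and Elf5 by -0.59 (-1.30 to 0.12). In all 4 the libraries of both stages overlapped. A 2-fold change of Cdx2, Gata3 or Eomes lies outside these intervals, and a 2-fold fall of Elf5 lies inside its interval.

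Among the members that rose were keratins. Krt8 and Krt18 encode the paired keratins of simple epithelia. Krt8 held 1274, 1368 and 1324 CPM at E3.75 and 2770.4, 2681 and 2779 CPM at E4.5 (log2 fold change 1.05, SE 0.08, adjusted p = 3.1e-09). Krt18 went from 5199 ± 659.8 to 9598 ± 406 CPM and was among the most abundant transcripts at both stages. Krt7, a further keratin, rose more, from 133, 106 and 109 CPM to 402, 274 and 362 CPM (1.56, adjusted p = 2.2e-07). The spread within a stage was small beside these differences, and each of the 3 keratins also passed with the first 2 libraries.

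The transcription factors Gata2 and Hand1 also rose. Gata2 held 55.2, 40.4 and 38.7 CPM at E3.75 and 138, 102 and 121 CPM at E4.5, and Hand1, which drives trophoblast giant cell differentiation, held 13.3, 17.2 and 12.3 CPM and then 27.9, 39.2 and 63.1 CPM. Their log2 fold changes were 1.41 (adjusted p = 2.45e-05) and 1.47 (adjusted p = 0.00192), and neither pair of groups overlapped. Both were picked from the list after their values were seen, as was Lgals3 (galectin-3, a lectin), which rose from 158 ± 74.0 to 485 ± 130.0 CPM. Tspan8, a tetraspanin, rose from 1656 ± 50.03 to 3482 ± 441 CPM, and Ndrg1, a stress-responsive gene of trophoblast, from 1057 ± 36.1 to 2330.0 ± 342 CPM. The single fall was that of Atp1b1, a subunit of the sodium pump that drives fluid into the cavity, from 182 ± 14.6 to 136 ± 16.4 CPM (adjusted p = 0.0352), and it did not pass with the first 2 libraries or with TMM factors.

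The list of epithelial junctions, keratins and polarity overlaps the trophectoderm list and had 13 rises and 4 falls among 30 measured members (37 listed), 10 and 2 with the first 2 libraries. Cldn4, a tight junction claudin, held 1295, 1380.2 and 1385 CPM at E3.75 and 2285, 2146 and 2258 CPM at E4.5 (0.72, adjusted p = 7.23e-07). Msn (moesin), which links membrane to actin, rose from 131 ± 27.1 to 324 ± 73.6 CPM, and Anxa2, a membrane-binding annexin, from 986 ± 92.3 to 1886 ± 248 CPM. Among the 4 falls, picked out after its value was seen, was Wwtr1 (TAZ), a cofactor of the Hippo pathway, from 94.0 ± 9.31 to 35.1 ± 6.70 CPM. The list thus held more rises than falls, with members in both directions, while of all genes 13.2% rose and 21.1% fell.

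Of genes tied to trophoblast invasion and implantation, 5 of 11 measured members (39 listed) rose and 1 fell, 4 and 1 with the first 2 libraries. Lgals1 (galectin-1), a secreted lectin abundant at the interface of embryo and mother, held 4409, 2588 and 3339.5 CPM at E3.75 and 12541, 7793 and 10344 CPM at E4.5. Its lowest E4.5 library lay above its highest E3.75 library, with a log2 fold change of 1.58 (SE 0.14, adjusted p = 6.7e-08). Ctsl (cathepsin L), a lysosomal and secreted protease, rose from 2369.9 ± 213 to 5415 ± 412 CPM, and Serpine2, a secreted protease inhibitor, from 47.5 ± 10.2 to 98.1 ± 28.7 CPM. Ctsd (cathepsin D) fell, from 1430.3 ± 156 to 949 ± 231 CPM (adjusted p = 0.00106). Ctsb (cathepsin B) rose, from 288 ± 42.0 to 405 ± 78.1 CPM (adjusted p = 0.0124). The cathepsins named here therefore moved in both directions, with Ctsl and Ctsb higher and Ctsd lower. Over the lysosome and endocytosis list, 8 of 32 measured genes (37 listed) rose and 7 fell, 4 and 3 with the first 2 libraries, and 12 rose and 5 fell with TMM factors. Among all genes 13.2% rose and 21.1% fell. Psap, the precursor of sphingolipid activator proteins, was among the most abundant genes and rose from 10378 ± 713 to 14823 ± 355 CPM, while Npc2, a lysosomal cholesterol carrier, fell from 2849.9 ± 127 to 2067 ± 168 CPM.

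Genes of glucose uptake and glycolysis rose together. Of 12 measured members (23 listed) 10 rose and none fell, against 13.2% and 21.1% of all genes, with a median of 1.01. With the first 2 libraries 9 rose and none fell, and with TMM factors 10 rose and none fell. Slc2a1, the glucose transporter GLUT1, held 57.1, 38.7 and 75.6 CPM at E3.75 and 165, 153 and 164 CPM at E4.5 (1.53, SE 0.21, adjusted p = 1.13e-05). Pfkl, a subunit of phosphofructokinase, held 40.0, 39.5 and 24.6 CPM and then 167, 82.3 and 94.7 CPM, with the E4.5 libraries spread over a wide range but all above those of E3.75. Ldha, the lactate dehydrogenase subunit that turns pyruvate into lactate, had the greatest rise, from 34.3, 12.9 and 14.1 CPM to 112, 76.4 and 121 CPM (2.39, adjusted p = 5.67e-06). Transcripts of Slc2a1, Pfkl and Ldha were thus higher at E4.5 in every library.

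Eno1 (enolase) rose from 25.9 ± 1.90 to 69.3 ± 17.7 CPM and Pkm (pyruvate kinase) from 144 ± 7.91 to 260.1 ± 63.8 CPM. Slc2a3, the transporter GLUT3, was already abundant and rose from 1333 ± 31.0 to 1804 ± 73.6 CPM. The 2 measured members that did not pass were the hexokinase Hk2, at 22.3 ± 7.57 and 13.9 ± 2.80 CPM, and the phosphofructokinase Pfkp, at 43.0 ± 10.7 and 40.2 ± 5.71 CPM. Several glycolytic genes have near-identical processed copies in the genome, and the low values of Ldha, Eno1 and Pgk1 are uncertain because reads shared with such copies may have been lost or split. Of the hypoxia response list, 4 of 8 measured genes (20 listed) rose and 1 fell, with the first 2 libraries too, against 13.2% and 21.1% of all genes. Slc2a1, Ndrg1 and P4ha2 are among these 4. The remaining one, Car4, a membrane carbonic anhydrase, rose from 69.7 ± 13.6 to 184 ± 29.1 CPM, and Bnip3l, a mitophagy receptor, fell from 51.9 ± 13.3 to 21.5 ± 10.4 CPM.

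**Figure D3:**
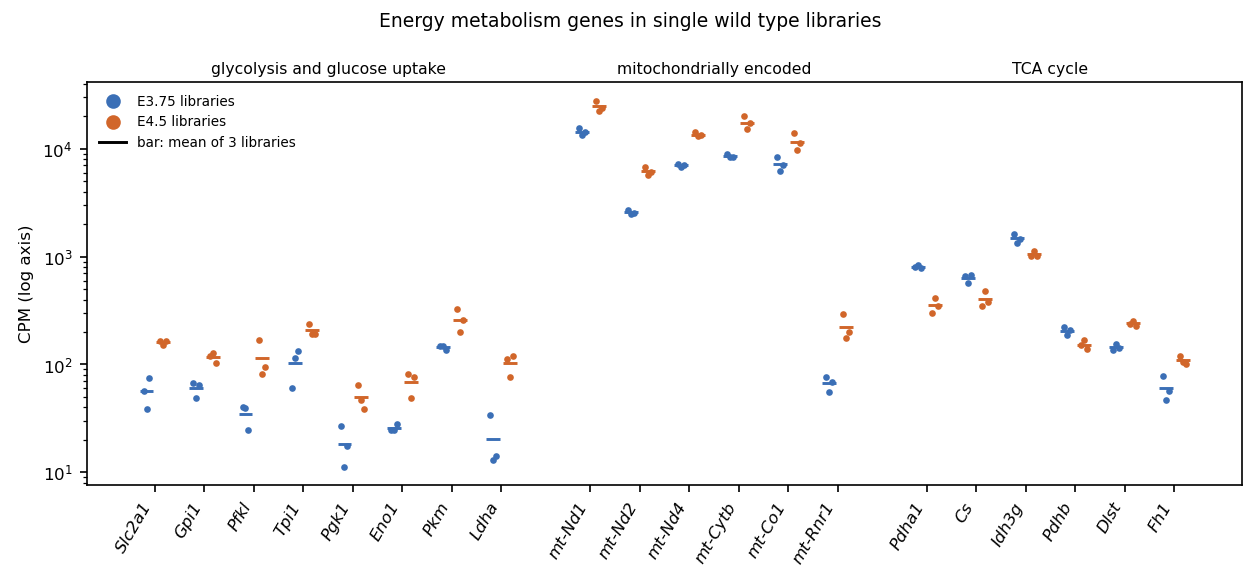
Levels of energy metabolism genes in the 6 wild type libraries, in CPM on a log axis, with E3.75 libraries in blue, E4.5 libraries in orange and a bar at the mean of 3. The glycolytic and mitochondrially encoded genes shown are higher at E4.5 in every library, while Pdha1, Cs, Idh3g and Pdhb are lower and Dlst and Fh1 higher.

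Transcripts of the mitochondrial genome took a larger share of reads at E4.5. All 9 measured genes of this list (15 listed) rose, with a median of 0.94, and all 9 also rose with the first 2 libraries and with TMM factors. Together they held 4.31%, 3.748% and 3.97% of reads in the 3 E3.75 libraries and 8.38%, 6.70% and 7.28% in libraries A, B and C. The genes mt-Nd1 and mt-Nd2 encode subunits of complex I. The level of mt-Nd1 was 15428, 13300.5 and 14232 CPM at E3.75 and 27855, 22502 and 23986 CPM at E4.5 (0.79, adjusted p = 4.73e-08), and mt-Nd2 rose from 2568 ± 102 to 6151 ± 535 CPM (1.26). The cytochrome b gene mt-Cytb rose from 8551 ± 370.2 to 17473 ± 2335 CPM. Library A was the highest of the 3 E4.5 libraries for mt-Nd1, mt-Nd2 and mt-Cytb, and library B the lowest. Because these transcripts are abundant, their rise takes a share from all other genes. On a scale that leaves them out, chosen after seeing the data, the median of all genes was -0.07 in place of -0.12.

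Nuclear genes of oxidative phosphorylation moved less. Of 57 measured members (60 listed) 21 rose and 3 fell, with a median of 0.25 and no change of 2-fold. With the first 2 libraries 10 rose and 1 fell, and with TMM factors 31 rose and 1 fell. Over all genes 13.2% rose and 21.1% fell, and with TMM factors 16.8% and 16.2%. Cox5b, a subunit of cytochrome c oxidase, held 173, 165 and 163 CPM at E3.75 and 340.3, 255 and 302 CPM at E4.5 (0.82, adjusted p = 0.000113). Atp5b, the catalytic subunit of ATP synthase, rose from 2948 ± 221 to 4058 ± 204 CPM. Ndufa9, a complex I subunit, fell from 611 ± 46.8 to 348 ± 51.8 CPM (-0.82), the greatest change of the list in either direction apart from Cox5b, which had nearly the same size.

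The pyruvate dehydrogenase complex and the TCA cycle did not move as 1 group. Of 25 measured members (28 listed) 4 rose and 7 fell, 3 and 4 with the first 2 libraries, and 9 rose and 3 fell with TMM factors, so the balance of this list depended on the scale. Over all genes 13.2% rose and 21.1% fell, and with TMM factors 16.8% and 16.2%. Pdha1, the E1 alpha subunit of pyruvate dehydrogenase, which carries pyruvate into the cycle, held 805, 836 and 780.4 CPM at E3.75 and 297, 417 and 349.9 CPM at E4.5. It fell by 2-fold or more on either scale, with a log2 fold change of -1.20 (adjusted p = 1.81e-07). Cs (citrate synthase) fell from 636 ± 55.2 to 402 ± 67.8 CPM and Idh3g, a subunit of isocitrate dehydrogenase, from 1477 ± 142 to 1052 ± 65.5 CPM. Later enzymes of the cycle rose, Dlst from 145 ± 9.52 to 239.7 ± 13.6 CPM and Fh1 (fumarate hydratase) from 60.2 ± 16.2 to 109 ± 10.3 CPM. These 5 genes kept their calls with TMM factors and with the first 2 libraries. Outside these lists, the 2 shuttle genes Gpd2 and Gpd1l fell by more than 2-fold. Gpd2, the mitochondrial glycerol-3-phosphate dehydrogenase, held 143, 139 and 155 CPM and then 13.02, 43.1 and 26.9 CPM, and Gpd1l held 537, 619.6 and 561 CPM and then 81.8, 137 and 117 CPM.

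In sterol and fatty acid synthesis none of 20 measured genes (33 listed) rose and 8 fell, against 13.2% and 21.1% of all genes. The list median was -0.48, and 5 fell with the first 2 libraries and 6 with TMM factors. Elovl6, a fatty acid elongase, held 284, 254 and 249.6 CPM at E3.75 and 113, 149 and 132 CPM at E4.5 (adjusted p = 2.45e-05). Ebp, an isomerase of cholesterol synthesis, fell from 125 ± 4.34 to 65.8 ± 6.99 CPM, and Pmvk, a kinase of the mevalonate pathway, from 339.6 ± 39.0 to 237 ± 39.6 CPM, though not in DESeq2 (adjusted p = 0.0692). Of fatty acid oxidation and lipid transport genes, 6 of 18 (29 listed) rose and 4 fell, 4 and 3 with the first 2 libraries. The falls of this list lie near the 21.1% of all genes. Fabp3, a fatty acid carrier, rose from 1104 ± 96.6 to 2173 ± 67.6 CPM and Hadh, an enzyme of beta oxidation, from 329.9 ± 15.7 to 509.8 ± 40.5 CPM. Acadm, the medium chain acyl-CoA dehydrogenase, fell from 185 ± 16.2 to 104 ± 3.44 CPM. Slc22a5, the carnitine transporter OCTN2, was outside the list and rose from 19.04, 15.5 and 10.5 CPM to 87.4, 109.7 and 103 CPM, a log2 fold change of 2.69.

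One-carbon and amino acid genes were divided, with 7 rises and 9 falls among 27 measured (36 listed), against 13.2% and 21.1% of all genes. There were 3 and 3 with the first 2 libraries, and the median of -0.06 turned to 0.06 with TMM factors. Psat1, an enzyme of serine synthesis, held 1207, 1358 and 1200.5 CPM at E3.75 and 576, 607 and 616 CPM at E4.5 (-1.06, adjusted p = 4.24e-08). Asns (asparagine synthetase) and Odc1 (ornithine decarboxylase) fell as well, from 439 ± 53.2 to 277 ± 12.2 CPM and from 264 ± 13.5 to 169 ± 12.4 CPM. Gcat, which works with threonine dehydrogenase to make glycine from threonine, rose from 32.4, 57.6 and 63.3 CPM to 219, 169 and 179 CPM (1.91, adjusted p = 1.1e-06). Slc3a2, the heavy chain of amino acid exchangers, rose from 306.6 ± 31.6 to 433 ± 43.1 CPM. These are single genes of a divided list, and no change of a whole pathway was tested.

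Xbp1 (ENSMUSG00000020484), the transcription factor of the unfolded protein response that expands the secretory pathway, had one of the greatest rises of all genes. It held 5.71, 20.6 and 17.6 CPM at E3.75 and 96.7, 153 and 112 CPM at E4.5, with a log2 fold change of 3.10 (SE 0.34, adjusted p = 7.39e-07). The E3.75 values rest on few reads, and every E4.5 library stood far above the highest of them. In the ATF4 and unfolded protein response list 7 of 16 measured genes (25 listed) rose and 1 fell, against 13.2% and 21.1% of all genes. The list median was 0.27, and 5 rose and 1 fell with the first 2 libraries. Manf, a secreted protein of the endoplasmic reticulum, held 246, 266 and 251 CPM and then 589, 588 and 614 CPM, with very little spread (1.23, adjusted p = 5.07e-08). Pdia6, a protein disulfide isomerase, rose from 429 ± 36.8 to 865 ± 43.7 CPM, Hspa5 (BiP), the main chaperone of this compartment, from 569 ± 42.8 to 866 ± 59.3 CPM, and Herpud1, which serves protein degradation, from 30.2 ± 10.8 to 84.4 ± 42.7 CPM. The fall was that of Asns, a target of ATF4, and Atf4 itself held 816 ± 44.7 and 875 ± 135 CPM (adjusted p = 0.54). Heat shock chaperones of the cytosol and mitochondria went the other way. Of the immediate early and heat shock list 5 of 9 measured genes (20 listed) fell and none rose, against 21.1% and 13.2% of all genes. With the first 2 libraries 3 fell. Among the 5 were Hsph1, from 799 ± 36.7 to 491 ± 21.8 CPM, and Hspe1, from 381 ± 36.7 to 217 ± 13.4 CPM.

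Genes of the endoplasmic reticulum chaperones carry a known element that is bound in the unfolded protein response, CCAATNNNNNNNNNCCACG, with N for any base. RefSeq promoter sequences (GRCm38.p6) were searched for it on both strands in the 250 bases before the start of transcription. It was present in 35 of 27025 genes (0.13%) and in 7 of the 15 list genes that matched an entry by symbol. The list names genes of this response, so its higher share of matches is no independent result. Of these 7 genes, Hspa5, Calr, Hsp90b1 and Pdia6 rose, and Canx, Dnajc3 and Creld2 did not pass the test. In all, 6 of the 15 list genes rose, 4 of them with the element, beside 13.2% of all genes. With the first 2 libraries only Hspa5 and Pdia6 of the 7 passed as higher. The sequences around the match are shown for 3 genes that rose and 1 that did not, since the same element stands before both kinds. Capitals mark the match, and each sequence is given in the direction of its gene, so a match on the other strand reads from CGTGG to ATTGG. The coordinates below are of the printed stretch. Pdia6 lies at chr12:17266481-17266519 (plus strand), Calr at chr8:84847065-84847103 (minus strand), Hsp90b1, which holds 2 matches, at chr10:86705523-86705666 (minus strand), and Canx at chr11:50325790-50325828 (minus strand).
Pdia6: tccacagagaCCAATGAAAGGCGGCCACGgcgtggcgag
Calr: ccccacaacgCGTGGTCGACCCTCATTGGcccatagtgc
Hsp90b1: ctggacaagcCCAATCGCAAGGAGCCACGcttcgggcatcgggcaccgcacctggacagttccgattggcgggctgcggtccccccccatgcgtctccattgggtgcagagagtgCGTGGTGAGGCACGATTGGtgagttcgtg
Canx: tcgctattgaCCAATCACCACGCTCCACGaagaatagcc
Calr (calreticulin) rose from 61.4 ± 1.63 to 103 ± 15.1 CPM (adjusted p = 0.00525) and Hsp90b1 (GRP94) from 631 ± 41.5 to 873 ± 241 CPM (adjusted p = 0.026), neither of them with the first 2 libraries, while the calnexin gene Canx held 37.3 ± 6.53 and 44.4 ± 5.79 CPM (adjusted p = 0.457). A match describes these letters and is not evidence of binding.

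Antioxidant genes moved mostly downward. Of 20 measured members (25 listed) 9 fell and 2 rose, against 21.1% and 13.2% of all genes. The list median was -0.42, 5 fell and 1 rose with the first 2 libraries, and 7 fell and 3 rose with TMM factors. Gsto1, a glutathione transferase, held 1689, 2342 and 2219.9 CPM at E3.75 and 727, 1025 and 851 CPM at E4.5 (-1.26, adjusted p = 1.26e-07). Gclm, the regulatory subunit of the enzyme that limits glutathione synthesis, held 66.6, 91.1 and 104 CPM and then 13.02, 33.3 and 25.1 CPM (-1.90), and the glutathione transferases Gstm1 and Gstp1 fell from 56.4 ± 8.12 to 20.3 ± 7.91 CPM and from 249 ± 44.8 to 119 ± 12.7 CPM. Each E4.5 library lay below each E3.75 library in these 4 genes. Txn1 (thioredoxin) rose from 584 ± 19.003 to 906 ± 59.2 CPM. Of iron, heme and metal genes, 2 of 16 measured (24 listed) rose and 3 fell, 1 and 2 with the first 2 libraries. The list's shares lie near the 13.2% and 21.1% of all genes. In the list Slc39a14, an importer of zinc and iron, fell most, from 54.9 ± 7.58 to 16.4 ± 2.73 CPM.

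In the cell cycle list 7 of 29 measured genes (38 listed) fell and 4 rose, but with the first 2 libraries 2 fell and none rose, with TMM factors 6 fell and 7 rose, and the median turned from -0.07 to 0.04. Among all genes 21.1% fell and 13.2% rose. Mki67, the proliferation antigen, held 87.6, 84.2 and 87.9 CPM at E3.75 and 29.7, 47.0 and 40.8 CPM at E4.5 (-1.15, adjusted p = 0.000421) and was among those that kept the call under both. Ccna2 (cyclin A2) fell from 275 ± 15.7 to 176 ± 23.7 CPM. Of the DNA methylation and chromatin list 9 of 23 measured genes (35 listed) fell and 3 rose, 5 and 1 with the first 2 libraries and 6 and 3 with TMM factors. Among all genes 21.1% fell and 13.2% rose, and with TMM factors 16.2% and 16.8%. Ezh2, the enzyme of the repressive Polycomb complex, held 187, 171 and 179 CPM and then 85.5, 70.5 and 65.9 CPM (-1.27, adjusted p = 6.53e-06). Prmt5, an arginine methyltransferase, fell from 130.0 ± 16.2 to 69.0 ± 3.45 CPM, and Chd4, a remodelling ATPase, from 111 ± 17.7 to 60.3 ± 10.4 CPM.

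The p53 and apoptosis list had 2 falls and 1 rise among 11 measured genes (24 listed), the same counts with the first 2 libraries. Over all genes 21.1% fell and 13.2% rose, so the list's counts with all libraries lie near these shares. Bax, an effector of the mitochondrial death pathway, held 47.6, 47.3 and 45.7 CPM at E3.75 and 5.58, 17.6 and 8.35 CPM at E4.5 (-2.19, adjusted p = 0.000119). Bcl2l11 (Bim), which activates Bax, fell from 35.7 ± 5.97 to 12.3 ± 5.12 CPM. The E4.5 values of both rest on few reads, with 1 read worth up to 1.96 CPM, and no E4.5 library reached the lowest of E3.75. Perp, a membrane protein that p53 controls, rose from 104 ± 14.3 to 174 ± 42.1 CPM.

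In the oocyte and maternal list 3 of 5 measured genes (32 listed) fell, with the first 2 libraries too, and none rose. For this list and the next, 21.1% of all genes fell and 13.2% rose. Khdc3, part of the subcortical maternal complex, held 2305, 2530.0 and 2299 CPM at E3.75 and 1130.5, 1148 and 1135 CPM at E4.5 (-1.06, adjusted p = 4.6e-09). Uchl1, a deubiquitinating enzyme of the oocyte, fell from 66.2 ± 13.4 to 21.7 ± 3.53 CPM, and Dppa3 is the other one. Of the 2-cell and cleavage list, 2 of 6 measured genes (29 listed) fell, Pramel5 from 175, 197 and 185 CPM to 35.3, 31.4 and 25.1 CPM (-2.57) and Eif1ad from 360.5 ± 31.5 to 193 ± 34.9 CPM. None of that list rose, but 1 member was called higher with TMM factors, beside 2 lower. Members of the Pramel and Eif1a families have close copies, so their values are uncertain.

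Of cytosolic ribosomal protein genes 14 of 59 measured (77 listed) fell and 5 rose, 7 and 2 with the first 2 libraries and 9 and 5 with TMM factors. Over all genes 21.1% fell and 13.2% rose, and with the first 2 libraries 11.7% and 7.28%, so the list's falls lie near these shares. Ribosomal protein genes share many near-identical copies, and single values are uncertain. The summed level of the list was 7.69% ± 0.0564 (SD, n = 3) of reads at E3.75 and 6.44% ± 0.150 (SD, n = 3) at E4.5, with no overlap between the groups. Of abundant members Rps9 fell from 4069 ± 108 to 2682 ± 66.8 CPM, Rplp0 from 5637 ± 100.4 to 4193 ± 266 CPM and Rpl8 from 11355 ± 123 to 8862 ± 363 CPM. Rpl30 fell from 187 ± 6.08 to 55.9 ± 7.59 CPM and Rpl7a rose from 39.2 ± 9.65 to 124 ± 9.75 CPM. The imprinted list had 4 measured genes (24 listed), of which Xlr3a rose, from 8.09 ± 1.28 to 31.0 ± 5.95 CPM. Xist, which silences an X chromosome in female cells, fell from 53.3, 28.4 and 40.4 CPM to 16.7, 9.80 and 16.7 CPM (adjusted p = 0.00253). No source used here gives the strand of reads or the sex of the embryos, so reads of Xist and of its antisense partner Tsix cannot be told apart. As a check for other tissue, the list of maternal blood, oviduct, uterus and cumulus cells had 3 measured members of 31, all globin genes, with a sum of 0.0116% to 0.0179% of reads at E3.75 and 0.0151% to 0.027% at E4.5. The globin Hbb-bs held 94.7 ± 25.2 and 146 ± 49.6 CPM with overlapping libraries (adjusted p = 0.0484, and 0.174 with the first 2 libraries), and its part in the other changes was not tested.

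**Figure D4:**
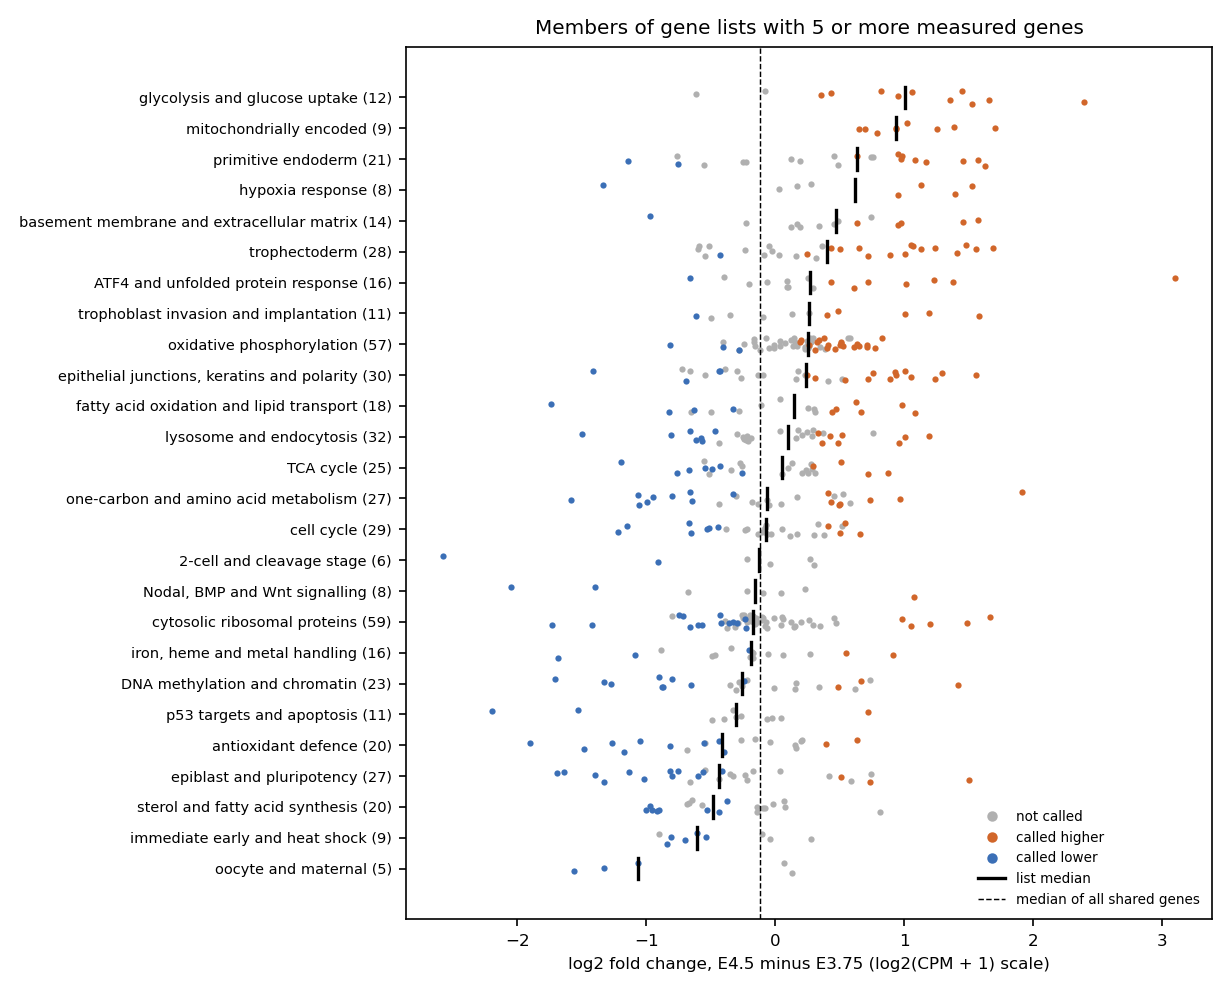
Log2 fold changes, E4.5 minus E3.75, of the measured members of each gene list with at least 5 of them (number in brackets). Points are genes, orange where called higher, blue where called lower and grey where not called, black bars are list medians, and the dashed line is the median of all shared genes at -0.12, with glycolysis at the top (1.01) and the oocyte list at the bottom (-1.06).

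The greatest rises lay outside most lists. These rises, and the greatest falls below, were ranked only among called genes with 2-fold changes and at least 20 CPM in the higher group. Genes whose groups overlap were left out of the ranking, so the separation of the groups was a condition of it. Dmkn (ENSMUSG00000060962), which encodes dermokine, a secreted protein of epithelia, held 22.8, 23.2 and 10.5 CPM at E3.75 and 708, 347 and 532 CPM at E4.5. This was a log2 fold change of 4.76 (SE 0.26, adjusted p = 1.84e-10), and the lowest E4.5 library stood far above the highest E3.75 library. BC051665 (ENSMUSG00000042243) went from 98.99, 34.4 and 52.7 CPM to 1329, 641 and 980.1 CPM (4.04), and Tmem14c, a mitochondrial membrane protein needed for heme synthesis, from 30.5, 58.4 and 33.4 CPM to 500.2, 259 and 348 CPM (3.15). In these 3 genes library A was highest, B lowest and C between them, and all 3 passed in each of the 17 alternatives.

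Among the next rises were transporters and secreted or surface proteins. Slc51a, a subunit of the organic solute transporter of bile acids and steroids, rose from 7.91 ± 4.60 to 59.9 ± 16.2 CPM, S100a14, a calcium-binding protein of epithelia, from 13.3 ± 4.97 to 81.9 ± 6.40 CPM, and Wfdc2, a secreted protein, from 36.8 ± 13.7 to 184 ± 27.8 CPM. Csrp1, a LIM domain protein of the actin cytoskeleton, held 49.5, 38.7 and 61.5 CPM at E3.75 and 283, 286 and 289.6 CPM at E4.5, with almost no spread at E4.5. H2-Q7, a nonclassical class I molecule, rose from 10.4 ± 3.26 to 63.5 ± 9.74 CPM, with values uncertain because its neighbours are near copies. The ubiquitin ligase Nedd4 rose from 16.2 ± 3.746 to 80.1 ± 8.201 CPM, Cdk18 from 16.7 ± 7.68 to 78.7 ± 15.2 CPM, Fastk from 14.3 ± 1.33 to 72.8 ± 17.1 CPM and Gm4926 from 16.8 ± 5.72 to 105 ± 24.9 CPM. By absolute level, Adh1, an alcohol dehydrogenase that can oxidise retinol, had one of the greatest differences, with 4179, 2503 and 3181 CPM at E3.75 and 5641, 8203 and 6845 CPM at E4.5 (1.08, adjusted p = 2.59e-06).

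The greatest falls were led by Guca1a (ENSMUSG00000023982), known as a calcium sensor of photoreceptors, at 154, 186 and 200.4 CPM at E3.75 and 5.58, 27.4 and 15.8 CPM at E4.5 (-3.62, SE 0.35, adjusted p = 1.38e-07). Neat1, the long noncoding RNA that builds nuclear paraspeckles, held 152, 141 and 121 CPM and then 18.6, 27.4 and 20.4 CPM (-2.60). Lgals4 (galectin-4) held 426, 409.9 and 441 CPM and then 53.9, 114 and 71.5 CPM, so that 1 galectin fell while Lgals1 and Lgals3 rose. Enah, a regulator of actin filaments, fell from 93.8 ± 5.53 to 12.5 ± 4.45 CPM, Sgpp1, a phosphatase of sphingosine phosphate, from 56.5 ± 5.03 to 9.49 ± 2.17 CPM, and Gm11517 from 172 ± 17.8 to 26.5 ± 2.65 CPM. Naalad2 fell from 51.9 ± 18.8 to 8.91 ± 5.01 CPM and Gabarapl1, an autophagy protein, from 53.7 ± 7.72 to 12.8 ± 8.92 CPM. Among abundant genes Calcoco2, an autophagy receptor, fell from 10297 ± 639 to 6819.7 ± 1498 CPM.

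Among the greatest falls those of Arrb2 and Ceacam10 were less firm. Arrb2 (beta-arrestin 2) held 9.52, 43.0 and 31.6 CPM at E3.75 and 5.58, 0 and 9.28 CPM at E4.5, and without E3.75 library 2 it did not pass (adjusted p = 0.0814), and DESeq2 left its adjusted p undefined. Ceacam10 held 45.7, 22.3 and 31.6 CPM and then 0, 13.7 and 17.6 CPM, and without E3.75 library 1 it did not pass (adjusted p = 0.102), nor in DESeq2 (0.243). In both a library with 0 reads stood among those of E4.5.

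The wild type change was set beside that of Oct4 null embryos by testing, for each gene, the null change from E3.75 to E4.5 minus the wild type change, over 12 libraries. Of 5882 genes 12 passed (0.204%), 9 with a positive and 3 with a negative difference. Gjb5 (connexin 31, a gap junction protein of trophoblast) held means of 244 and 258 CPM in wild type and 126 and 295 CPM in null embryos at E3.75 and E4.5, a difference of 1.14 (SE 0.18, adjusted p = 0.0114). Lgals4 fell in both, from 426 to 79.7 CPM in wild type and from 247 to 107 CPM in null embryos, and the fall was smaller in null embryos by 1.28 (adjusted p = 0.0365). Zc3hav1, an antiviral RNA-binding protein, held 38.3 and 63.9 CPM in wild type and 17.1 and 112 CPM in null embryos. Arf2, a small GTPase of vesicle traffic, held 21.9 and 27.7 CPM in wild type and 46.1 and 11.9 CPM in null embryos, the greatest negative difference (-2.25). These calls were not stable. With the first 2 libraries of each group none of the genes passed in limma, though 338 had an unadjusted p under 0.05 (844 with all libraries), and edgeR's quasi-likelihood test with all libraries called 42. None of the 12 belongs to the gene lists used here, so no list member was shown to change differently in the null embryos, which does not show that they change alike.

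For the genes described above the null means can be read beside the wild type ones, on the same scale but with the same confounding of stage and table. Nanog held 353 ± 23.6 and 58.8 ± 15.1 CPM in null embryos, with a difference of the changes of -0.91 (adjusted p = 0.121). Spp1 held 51.2 ± 11.4 and 133 ± 31.6 CPM, Lama1 50.5 ± 3.00 and 132 ± 26.7 CPM, and Aqp8 59.3 ± 7.36 and 451 ± 134 CPM. Ldha held 8.32 ± 4.86 and 48.8 ± 4.52 CPM, Xbp1 27.8 ± 6.501 and 194 ± 12.3 CPM, and Dmkn 17.9 ± 4.14 and 329 ± 100.1 CPM. These 7 genes were chosen after their values were seen, and other genes differed in direction. Dppa5a held 687 ± 52.4 and 684 ± 109.7 CPM in null embryos, Idh3g 1179 ± 225 and 1208 ± 11.2 CPM, and Xist 21.3 ± 5.47 and 23.8 ± 6.74 CPM, none with the direction of the wild type mean. The difference between genotypes did not pass the test in any of these 10 genes.

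**Figure D5:**
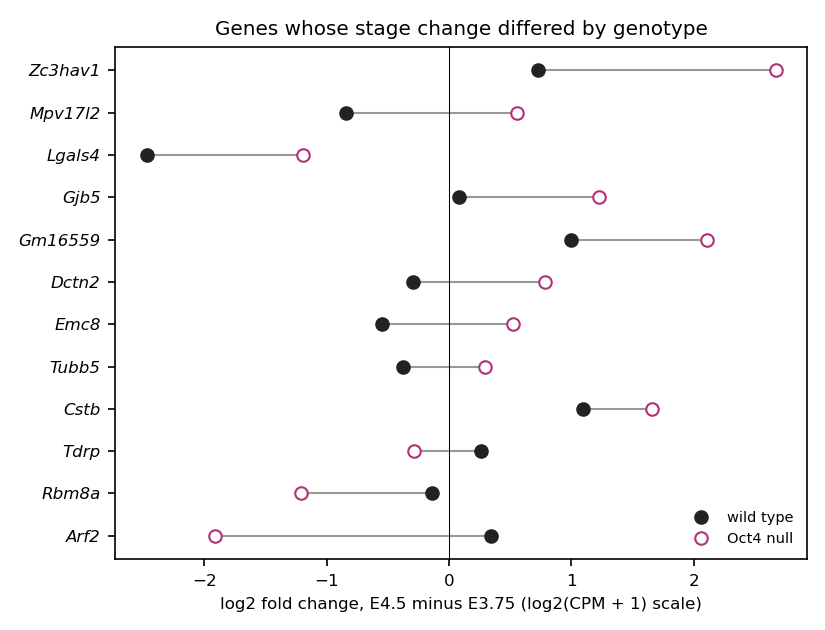
Log2 fold change from E3.75 to E4.5 in wild type (filled) and Oct4 null embryos (open) for the 12 genes in which the 2 changes differed, on the log2(CPM + 1) scale, from 3 libraries per stage and genotype. Open circles lie to the right of the filled ones for 9 genes, from Zc3hav1 to Cstb, and to the left for Tdrp, Rbm8a and Arf2.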

How the data were processed

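Polyadenylated RNA of mouse embryos was measured. The authors deposited CPM values in 1 table per stage, scaled separately. Per the submitters' processing notes, the tools included edgeR and the build was mm9. No aligner, counter or annotation is named there. Each deposited gene reached at least 10.4 CPM in 3 libraries of its table, which fits a filter on low genes. Dividing by the worth of 1 read gave whole reads for 79158 of 79158 deposited CPM values (within 0.01 reads), and the totals give the depth. Of the 5882 shared genes 5795 had a symbol, matched by identifier.

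Each library was rescaled to a sum of 1000000 over the shared genes and log2(CPM + 1) was fitted with limma 3.58.1 (R 4.3.3), with a trend in the variance, two-sided, with Benjamini-Hochberg adjustment over all shared genes. No further filter was applied. The null and wild type changes were compared by an interaction contrast over 12 libraries. Alternatives were the deposited CPM without rescaling, TMM factors (edgeR 4.0.16), DESeq2 1.42.0 size factors, pseudocounts of 0.1 and 5, a mean of at least 10 CPM, leaving out each library, the first 2 libraries, reads thinned to 510307, 1 fit of 12 libraries, and the edgeR quasi-likelihood and DESeq2 tests on the recovered reads. The limma test of the wild type comparison was checked on simulated data with independent libraries. The interaction contrast and the edgeR and DESeq2 tests were not checked in this way.

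Members and gene lists were chosen with earlier results of these data known. The text names Pou5f1, then the 15 greatest rises and 15 greatest falls among called genes with 2-fold changes, no overlap and a mean of at least 20 CPM in the higher group, then the 10 called genes with the greatest difference of mean CPM, a set of lineage genes where measured, and up to 6 called members of each list by smallest p. Other list members named (Hand1, Gata2, Lgals3, Atp1b1, Wwtr1, Hk2, Pfkp, Atf4, Calr, Canx, Hsp90b1, Dnajc3 and Creld2) were chosen after their values were seen. Some genes that the rule names are not reported here.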

Additional observations from a re-analysis of the deposited data

Results flagged for a closer look

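The change from E3.75 to E4.5 differed between Oct4 null and wild type embryos in 12 genes by the test of the difference itself. The null change minus the wild type change, on the log2(CPM + 1) scale, was 1.94 for Zc3hav1, 1.399 for Mpv17l2, 1.28 for Lgals4, 1.14 for Gjb5, 1.11 for Gm16559, 1.07 for Dctn2, 1.07 for Emc8, 0.67 for Tubb5 and 0.57 for Cstb. It was -0.55 for Tdrp, -1.07 for Rbm8a and -2.25 for Arf2. The adjusted p-values of limma lay between 0.0114 and 0.0365, and none passed with the first 2 libraries of each group. In Mpv17l2, Dctn2, Emc8 and Tubb5 the wild type mean was lower at E4.5 and the null mean higher. In Tdrp and Arf2 the wild type mean was higher at E4.5 and the null mean lower.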

How the results depend on the processing

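Of 167 named genes 159 passed in the wild type comparison. In 134 of them each of the 17 alternatives left the direction and the call as they were, 139 passed with the first 2 libraries and 156 with TMM factors, and no direction was reversed. With the first 2 libraries 428 genes were higher and 689 lower, in place of 776 and 1243. DESeq2 called 697 genes lower, 297 of them by 2-fold or more, and left the adjusted p undefined for 571. Leaving out 1 library at a time gave 553 to 750 higher and 922 to 1264 lower genes in the wild type comparison. The count of 12 genes whose change differed by genotype was 42 in the edgeR quasi-likelihood test, 15 with a pseudocount of 5 and 0 with the first 2 libraries. It ranged from 2 to 39 when 1 library was left out. It fell to 2, 3 or 4 without E3.75 wild type library 1 or 3, E4.5 wild type library A or C, any E3.75 null library, or E4.5 null library 2 or 3. It rose to 18 without E3.75 wild type library 2, 39 without E4.5 wild type library B and 31 without E4.5 null library 1. The cause was not tested. No paired analysis was possible because the E4.5 wild type columns carry no replicate number. Depth limits genes of a few reads per library, such as Arrb2, Bax and Hand1.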

Other observations

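Genes in the table of 1 stage only, 766 for E3.75 and 663 for E4.5, have no value at the other stage here and were tested in no comparison. Their levels are given as deposited CPM in the 3 wild type libraries, without a fold change. They were chosen after their values were seen, and each table holds genes that reach at least 10.4 CPM in 3 libraries.

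Among genes of the E4.5 table were several of placenta and growth control. Plac1, a placental gene, held 58.9, 46.5 and 57.0 CPM in libraries A, B and C. The imprinted noncoding RNA H19 held 47.9, 42.7 and 46.9 CPM, the imprinted Mest a mean of 27.2 ± 3.34 CPM (SD, n = 3) and Phlda2, an imprinted gene that limits placental growth, 19.5 ± 6.11 CPM. The most abundant wild type gene of that table alone was Baiap2l1, which shapes actin at membranes, with 116, 139.6 and 113 CPM. Fkbp11, a folding enzyme of the secretory pathway, held 60.8 ± 17.7 CPM, Fabp5, a fatty acid carrier, 41.5 ± 2.97 CPM and Lefty2, a Nodal antagonist, 27.8 ± 17.9 CPM.

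Among genes of the E3.75 table were Sox17, a transcription factor of the primitive endoderm, with 45.1, 32.3 and 34.7 CPM, and Dusp4, a phosphatase induced by MAPK signalling, with 43.3, 58.6 and 52.1 CPM. Id1, a target of BMP signalling, held 30.6 ± 2.11 CPM. Saa3, an acute phase protein, had the highest wild type mean of that table alone, with 124, 79.8 and 102 CPM, and Trim43b, of a family known from early embryos, held 87.7 ± 5.15 CPM.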
